A study of Homo sapiens with 3 samples.

Results

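Peaks of the transcription factor RBPJ at promoters that run in a single direction were described, and those lying before the transcription start site (TSS) were compared with those lying after it. They came from chromatin immunoprecipitation followed by sequencing (ChIP-seq) in MDA-MB-231, an established human breast cancer cell line derived from a hormone receptor-negative tumour. A peak was a member when its summit lay within 1000 bp of a protein-coding TSS and all protein-coding TSS within that distance were on 1 strand. Of 2926 RBPJ peaks, 1643 were members (56.2%, 95% Wilson interval 54.3 to 57.9). The summit was upstream of the nearest TSS in 1088 members and downstream of it, or on it, in 555. Another 233 RBPJ peaks were at divergent promoters, with protein-coding TSS on both strands, and 1050 were farther from any protein-coding TSS.

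The study asked where RBPJ, also called CBF1, and L3MBTL3, a protein that binds methylated lysines, lie together on chromatin. Cells of this single line were used, with no treatment named in the labels. There was 1 library for an anti-RBPJ antibody, 1 for an anti-L3MBTL3 antibody and 1 of input DNA, which was not analysed here. Depth was 30 to 40 M aligned reads in each library by the labels, where M stands for megareads. There are no replicates, so intervals and tests are over the peaks of these libraries and cover counting error only. Peaks are not replicates and neighbouring peaks can share DNA fragments, so p-values may be too small. Peak lists carry no expression levels, and the identity of the line was not checked here.

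RBPJ is the DNA-binding factor of the Notch pathway. Without a Notch signal it holds corepressor complexes, among them complexes with histone demethylases, at its target genes. When Notch is cleaved, its intracellular domain enters the nucleus and joins RBPJ and a Mastermind coactivator, and genes of the HES and HEY repressor families are switched on. The preferred RBPJ site contains the core TGGGAA, and in the forms CGTGGGAA and TGTGGGAA it is bound with high affinity. A promoter carries its own signals: a CCAAT box, bound by NFY, and GC boxes, bound by SP and KLF factors, usually stand a short way upstream of the TSS.

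High-affinity words lay within 100 bp of the summit at 53 upstream and 37 downstream members. The sites of the members with the highest RBPJ fold enrichment are printed, so that the word can be seen in its surroundings on each side of the TSS. Sequences are from GRCh37 (hg19), 5′ to 3′ on the strand of the gene, in 30 bases, and capitals mark CGTGGGAA or TGTGGGAA, or its reverse complement TTCCCACG where the word is on the other strand. The first set is from upstream members.
OPA3, chr19:46088272-46088301, minus strand: gccaaggcgggCGTGGGAAtccacacgcct
NAPG, chr18:10526004-10526033, plus strand: cctcctcggcgTTCCCACGcctatttgggc
NUCB2, chr11:17298218-17298247, plus strand: cggccgcagagTGTGGGAActgtcgccatg
HEY2, chr6:126070762-126070791, plus strand: cagagttgcggCGTGGGAAagagccgctag
RBPJ, chr4:26321242-26321271, plus strand: gtttaggaaatTTCCCACGgccgtgttgtg
TRAPPC8, chr18:29523409-29523438, minus strand: aggccaaactgCGTGGGAAgcgagcgtgcg
NACA, chr12:57119200-57119229, minus strand: accacccccgcCGTGGGAAcggcctgacag
ZNF155, chr19:44488188-44488217, plus strand: agcttgggaggCGTGGGAAttttggcccag
ZNF155, chr19:44488258-44488287, plus strand: ctctgtggagtCGTGGGAActttggctcag
The second set is from downstream members.
MID2, chrX:107070020-107070049, plus strand: gcacggccgccTTCCCACGctcccgcagcc
TPPP, chr5:692958-692987, minus strand: ccggtgtgaggCGTGGGAAattagggcgtg
NCOR1, chr17:16119149-16119178, minus strand: agtttttccttTTCCCACGcctgaggaagg
HEXIM1, chr17:43225901-43225930, plus strand: ggaagaggagcTGTGGGAAgggggaggagg
TASP1, chr20:13619508-13619537, minus strand: agtgtccctctTTCCCACGctgtccgcgcc
DDX39B, chr6:31510132-31510161, minus strand: gccaaggacccCGTGGGAActcgcagcctt
YTHDC2, chr5:112849505-112849534, plus strand: gtggccccggaTTCCCACGgtctttgtcat
ST3GAL3, chr1:44173689-44173718, plus strand: tcgggccctgcTGTGGGAAaaggaaagaaa
At NAPG, RBPJ, MID2, NCOR1, TASP1 and YTHDC2 the word ran against the gene. At HEY2 the middle of the word was 1 bp before the TSS. ZNF155 was the member with a pair of words, both CGTGGGAA on the gene's strand with starts 70 bp apart.

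The longer windows that follow are the 201 bases centred on upstream summits, and they are shown because they hold RBPJ words beside words of promoter factors. Capitals mark every word of the 14 searched that was found.
TAGLN2, chr1:159894377-159894577, minus strand: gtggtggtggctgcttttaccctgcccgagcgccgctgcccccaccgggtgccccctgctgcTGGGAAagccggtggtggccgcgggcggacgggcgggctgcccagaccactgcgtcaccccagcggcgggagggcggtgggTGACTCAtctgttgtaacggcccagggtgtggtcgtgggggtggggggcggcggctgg
OPA3, chr19:46088146-46088346, minus strand: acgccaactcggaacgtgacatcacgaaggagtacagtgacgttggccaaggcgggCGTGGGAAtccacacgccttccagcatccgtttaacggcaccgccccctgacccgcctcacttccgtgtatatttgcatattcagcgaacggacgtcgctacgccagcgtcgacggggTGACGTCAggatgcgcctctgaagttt
RRM2, chr2:10260323-10260523, plus strand: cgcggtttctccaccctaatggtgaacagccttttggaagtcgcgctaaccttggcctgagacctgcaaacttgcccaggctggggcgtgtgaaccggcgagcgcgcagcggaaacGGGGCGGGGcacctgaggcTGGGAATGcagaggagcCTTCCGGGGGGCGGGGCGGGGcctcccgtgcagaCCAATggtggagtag
TAGLN2, the upstream member with the highest fold, held the core TGGGAA and the AP-1 word TGACTCA and no high-affinity word. OPA3 held CGTGGGAA and the CRE word TGACGTCA. RRM2 held the core running into the TEAD word GGAATG, the ETS word CCGGAAG on the other strand, 3 copies of the GC box GGGGCGGGG, of which 2 overlap, and a CCAAT word.

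RBPJ summits crowded around the TSS and lay upstream of it more often than downstream. The upstream share was 66.2% (63.9 to 68.5), while 49.5% of all bases within 1000 bp of protein-coding TSS of a single strand were upstream of the nearest one. Per megabase (Mb) of such sequence there were 31.9 summits upstream and 15.9 downstream, a ratio of 2.0. The choice of TSS bears on this share. With the 5′ end of each gene as its only TSS the upstream share was 51.7%, and with the TSS of the Ensembl canonical transcript it was 67.5%. No test was run on the share, since the position is a description of 1 library.

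The profile differed in shape between the sides. Downstream, summits were most dense in the first 20 bases from the TSS on (122 per Mb) and fell off fast: 342 summits lay in the first 100 bases and 68 in the next 100. Upstream, the density was 126 per Mb in the last 20 bases before the TSS and reached 115 per Mb again between 101 and 120 bp before it. The last 100 bases before the TSS held 432 summits and the 100 before those still held 311. The median distance was 126 bp upstream (quartiles 56.0 and 239) and 61.0 bp downstream (20 and 214). By 300 bp both sides had reached the same share, 83.1% of the members of each. Only 1 downstream summit lay 800 bp or more from the TSS, that of PLEC at 999 bp.

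**Figure D1:**
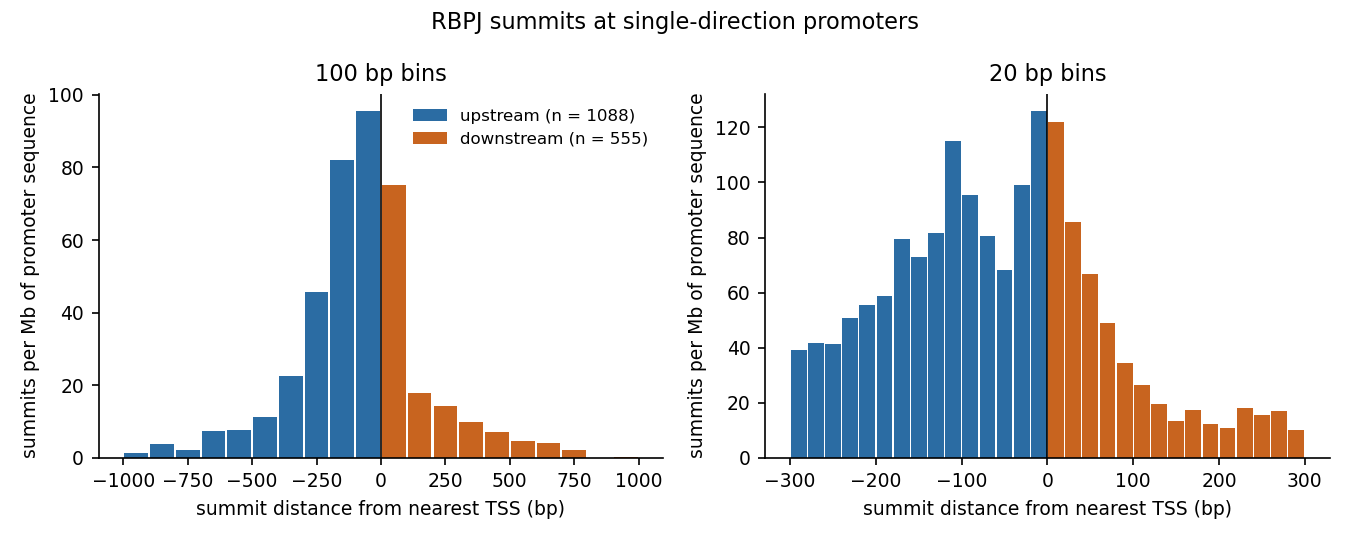
Summits per megabase of single-direction promoter sequence (y axis) by distance from the nearest TSS in bp (x axis), in 100 bp bins over the whole window on the left and in 20 bp bins near the TSS on the right. Blue bars are the 1088 upstream and orange bars the 555 downstream summits; both sides peak at the TSS, and the blue bars stay high to about 200 bp before it, with 82.1 summits per Mb at 101 to 200 bp against 17.9 at 100 to 199 bp downstream.

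By annotation, 64.1% of downstream summits were in a UTR (60.1 to 68.0), 24.5% in an intron and 10.1% in a coding exon. Upstream, 56.6% were outside protein-coding transcripts (53.7 to 59.5), 27.2% in an intron and 12.1% in a UTR. A summit just downstream of a protein-coding TSS lies inside that transcript, so this contrast follows in part from how the sides were defined. An upstream summit can be inside a gene, since transcripts of all protein-coding genes on either strand were counted. It may lie in a longer transcript of the same gene or in another gene, and these were not told apart. A TSS of a long non-coding RNA on the other strand lay within 1 kb of 28.6% of upstream members (26 to 31.3) and 27.9% of downstream members (24.4 to 31.8), so the single direction refers to protein-coding genes. The window's edge was nearly empty. KLF12 (934 bp), PLEC (941 bp upstream and 999 bp downstream) and IRF2BP2 (997 bp), with folds of 4.37 to 5.34, were the outermost members. Just outside it were peaks near CR769776.1 (1004 bp), SPEN (1013 bp), HES1 (1017 bp downstream, fold 6.87) and TRERF1 (1023 bp), with the other folds from 3.35 to 4.04.

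RBPJ fold enrichment, the deposited ratio of signal at the summit to the caller's local background, was slightly higher upstream. The median was 5.12 upstream (quartiles 4.58 and 5.77, range 2.77 to 12.4) and 4.91 downstream (4.37 and 5.58, range 3.03 to 10.8), and the ranges overlap almost wholly. An upstream peak had the higher fold in 56.4% of all upstream and downstream pairs. The fold was at or above 5.08, the median of the whole RBPJ list, in 580 of 1088 upstream members (53.3%, 50.3 to 56.3) and in 246 of 555 downstream members (44.3%, 40.2 to 48.5; odds ratio 1.43, 1.17 to 1.76, Fisher's exact test, two-sided, p = 5.79e-04). Among the 312 members with a -log10 q of at least 5, a limit that itself selects strong peaks, the medians differed by 0.134. Here the shares were taken at or above the median fold of all RBPJ peaks within that limit, in place of 5.08. They did not pass the test (Fisher's exact p = 0.523). The upstream peaks also had the higher median -log10 q (3.66 against 3.22) and width (94.0 against 86.0 bp). Peaks at divergent promoters had a median fold of 5.05.

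**Figure D2:**
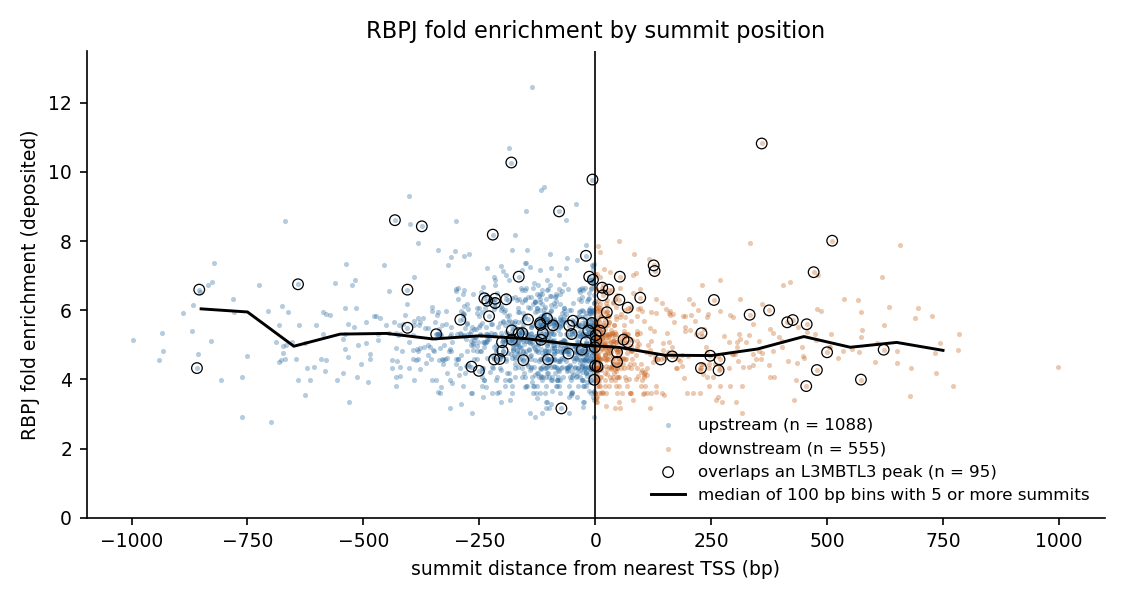
RBPJ fold enrichment (y axis, linear, as deposited) of each member by the distance of its summit from the nearest TSS in bp (x axis); blue dots are upstream and orange dots downstream members, open circles mark the 95 that overlap an L3MBTL3 peak, and the line is the median of 100 bp bins with 5 or more summits. The line stays between 4.69 and 6.04, and the circles are spread over both sides, with few dots but several circles beyond 200 bp downstream.

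The strongest upstream members lay at genes of several functions. TAGLN2, which encodes the actin-binding protein transgelin 2, had the highest fold of all members, 12.4, with the summit 136 bp before the TSS (chromosome 1, 159894274 to 159894814, intron). OPA3, a mitochondrial membrane protein, followed with 10.7 at 186 bp (chromosome 19, 46088001 to 46088465). SIPA1L2, of the Rap GTPase-activating protein family, had 10.3 at 181 bp. NAPG, a protein of vesicle fusion, had 9.78 at 6 bp. ARHGAP5, a GTPase-activating protein, had 9.57 at 110 bp, and ADHFE1, a mitochondrial alcohol dehydrogenase family enzyme, 9.47 at 116 bp. RRM2, the small subunit of ribonucleotide reductase, had 9.31 at 402 bp. NUCB2, a calcium-binding protein, had 9.07 at 42 bp. The general transcription factor subunit GTF2H4 (149 bp) and the Notch-induced repressor HEY2 (78 bp) both had 8.86. ZBTB18, a zinc finger repressor, at 432 bp and CCNJL, a cyclin-like protein, at 64 bp both had 8.60. TAGLN2 was the only one of these 12 whose TSS was not CpG-rich. The core TGGGAA was within 100 bp of the summit in 11 of the 12, ZBTB18 being the exception, against 20% of all upstream members.

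Downstream, the highest fold was 10.8 at MID2, which encodes a microtubule-associated ubiquitin ligase, 359 bp after the TSS in an intron (chromosome X, 107069877 to 107070164). All other downstream members had folds of 8.01 or less. TPPP, a tubulin-binding protein (511 bp, intron), and NCOR1, a nuclear corepressor that can join RBPJ (52 bp, UTR; chromosome 17, 16118850 to 16119224), both had 8.01. THAP1, a zinc finger factor, had 7.95 at 333 bp, TRIB3, a stress-induced pseudokinase, 7.88 at 658 bp, and REPIN1, a zinc finger protein, 7.86 at 7 bp. SPTSSA, a subunit of serine palmitoyltransferase, had 7.67 at 10 bp. HEXIM1, an inhibitor of the transcription elongation kinase P-TEFb, had 7.62 at 83 bp. TMEM65 (117 bp, 7.49), the chromatin protein JADE3 (126 bp, 7.30), the protease TASP1 (18 bp, 7.18) and the dystroglycan gene DAG1 (128 bp, 7.13) completed the 12. All 12 TSS were CpG-rich, and 7 of the 12 held the core, against 22.3% of all downstream members.

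Across all members the TSS was CpG-rich, meaning an observed over expected CpG ratio above 0.6 in 1001 bp, in 94.0% upstream and 94.8% downstream (odds ratio 0.868, 0.553 to 1.36, Fisher's exact p = 0.576). Among 16946 canonical single-direction TSS, used as controls, 63.5% were CpG-rich.

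Of 14 words sought on both strands within 100 bp of the summit, 2 (14.3%) differed between the sides by Fisher's exact test with Benjamini-Hochberg adjustment over the 14. The word CCAAT, part of the NFY site, was in 24% of upstream windows (21.5 to 26.6) and 12.6% of downstream windows (10.1 to 15.6; odds ratio 2.19, 1.64 to 2.91; two-sided Fisher's exact test, adjusted p = 3.84e-07). Windows at control TSS, matched to the members by 100 bp bins of distance, held it in 26.7% upstream and 14.8% downstream. Those at CpG-rich control TSS held it in 26% and 11.5%, so the member shares were close to those of promoters at large. For downstream members more than 100 bp from the TSS, 7.98% of windows held CCAAT while 23% of the windows mirrored to the upstream side of the same TSS did. The GC box GGGGCGGGG was in 31.2% upstream and 24.7% downstream (odds ratio 1.38, 1.10 to 1.74; exact test, adjusted p = 0.0479). Control windows held it in 15.3% and 9.07%, and those at CpG-rich TSS in 21.7% and 12.9%. The GC box was thus more frequent upstream at control TSS too. The GC box call was lost without any one of 12 of the 23 chromosomes (adjusted p of 0.0123 to 0.250 over the 23) and in 7 of the 13 other settings tried, while the odds ratio without 1 chromosome was 1.26 to 1.47.

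RBPJ words did not differ detectably between the sides. A high-affinity word, CGTGGGAA or TGTGGGAA, was in 4.87% of upstream windows (3.74 to 6.32) and 6.67% of downstream windows (4.88 to 9.05), with control shares of 1.54% and 1.3%, or 1.47% and 1.13% at CpG-rich controls (odds ratio 0.717, 0.465 to 1.11; exact test, adjusted p = 0.274). The core TGGGAA, which the high-affinity words contain, was in 20% and 22.3% of windows, with control shares of 16% and 13.3%, or 14.2% and 10.5% at CpG-rich controls (odds ratio 0.871, 0.679 to 1.12; exact test, adjusted p = 0.351). These intervals leave room for a difference of either direction. Most members on both sides held neither word within 100 bp. The AP-1 words TGACTCA and TGAGTCA were in 3.31% upstream and 5.23% downstream (controls 2.60% and 1.71%, CpG-rich controls 1.5% and 0.960%; odds ratio 0.621, 0.376 to 1.02; exact test, adjusted p = 0.174). The TATA word TATAAA was in 1.65% and 1.62%, with control shares of 7.35% and 5.90%, or 4.09% and 2.55% at CpG-rich controls. The remaining words were ETS CCGGAAG (11.7% and 9.55%, controls 6.54% and 6.41%, CpG-rich controls 9.07% and 8.61%), the E-box CACGTG (8.36% and 5.59%, controls 5.33% and 3.58%, CpG-rich 6.38% and 4.17%), TEAD GGAATG (7.72% and 6.13%, controls 8.41% and 7.01%, CpG-rich 6.98% and 5.23%) and the CRE word TGACGTCA (2.67% and 1.08%, controls 1.39% and 0.783%, CpG-rich 1.91% and 1.02%). RUNX TGTGGTT (controls 2.34% and 1.73%, CpG-rich 1.55% and 1.02%), NRF1 GCGCATGCG (1.31% and 0.747%, CpG-rich 1.97% and 1.12%), YY1 AAGATGGCG (1.12% and 1.69%, CpG-rich 1.6% and 2.38%) and ZNF143 ACTACAATT (0.241% and 0.0580%, CpG-rich 0.309% and 0.0514%) were each in at most 2.52% of the members' windows on either side.

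**Figure D3:**
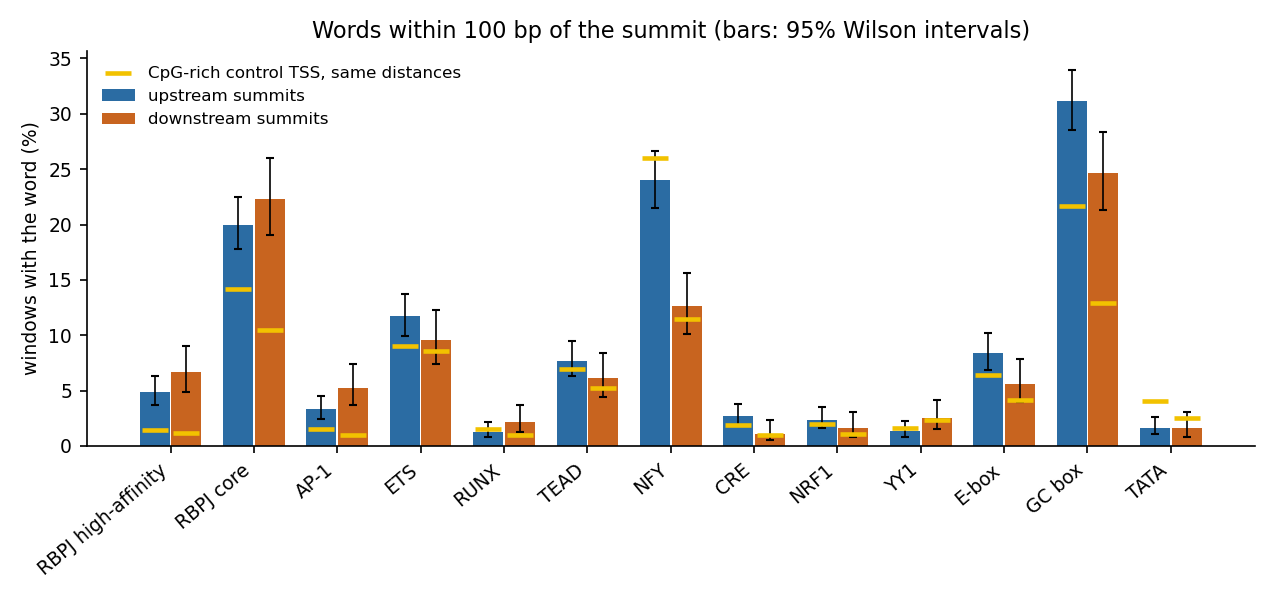
Percent of 201 bp windows centred on summits that hold each word (y axis), by word (x axis), upstream in blue and downstream in orange with 95% Wilson intervals. Yellow marks are the shares at CpG-rich control TSS, matched by 100 bp bins of distance. CCAAT follows its controls on both sides (24% and 12.6%), while the intervals of the GC box, the RBPJ words and AP-1 lie above their marks on both sides and those of ETS and the E-box lie above theirs upstream.

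The high-affinity words were compared with the other side of the same TSS, for members more than 100 bp from it. Upstream, 37 of 656 windows at the summit held one (5.64%) and 5 of the mirrored windows did (0.762%). Downstream it was 18 of 213 (8.45%) and 6 (2.82%). The upstream members held 53 distinct words, 32 of them CGTGGGAA and 21 TGTGGGAA, and 29 of the 53 were on the gene's strand. One CGTGGGAA lay in the windows of both RPL39 members and was counted once here. The downstream members held 37, as 27 CGTGGGAA and 10 TGTGGGAA, with 21 on the gene's strand. Their median distance from the summit was 44 bp upstream and 38.5 bp downstream. Members with the word had a median fold of 5.66 upstream (quartiles 4.74 and 6.82) and 5.92 downstream (5.08 and 6.43), and members without it 5.11 (4.56 and 5.73) and 4.87 (4.33 and 5.46). These quartiles overlap, and the difference was not tested.

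L3MBTL3 peaks overlapped 95 of the 1643 members by at least 1 bp (5.78%, 4.75 to 7.02), beside 4.37% of all RBPJ peaks, members included. They overlapped 4.72% of RBPJ peaks at divergent promoters (2.66 to 8.25) and 2.10% of those away from promoters (22 of 1050, 1.39 to 3.15). The share was 4.96% upstream (54 of 1088, 3.82 to 6.42) and 7.39% downstream (41 of 555, 5.49 to 9.87), a difference that missed the threshold (odds ratio 0.655, 0.430 to 0.996, Fisher's exact test, two-sided, p = 0.0569). The Woolf interval of the odds ratio and the exact test fall on different sides of the threshold here. The call depends on the settings: the odds ratio was below 1 in every alternative listed in the closing section, and it passed the test in 7 of 14 of them and without any one of 10 of the 23 chromosomes. Chromosome 6 held 21 of the 95 overlaps, and without it the odds ratio was 0.726 (Fisher's exact p = 0.206). By distance, in zones set after the values had been seen, the overlap was 4.80% within 49 bp downstream, 6.25% at 50 to 199 bp and 13.1% from 200 bp on (19 of 145, 8.55 to 19.6). Upstream the same zones had 4.74%, 4.32% and 6.02%.

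Where the proteins overlapped, their summits were a median of 59.5 bp apart upstream and 54.0 bp downstream. The median RBPJ fold was 5.57 for upstream members with an overlap and 5.11 for those without, and 5.41 and 4.88 downstream. With a high-affinity word, 5 of 53 upstream members (9.43%, 4.10 to 20.3) and 8 of 37 downstream members (21.6%, 11.4 to 37.2) overlapped an L3MBTL3 peak. Without the word the shares were 4.73% (3.6 to 6.20) and 6.37% (4.57 to 8.81). The members with an overlap and the highest RBPJ fold were MID2 (L3MBTL3 fold 7.48), SIPA1L2 (14.5, the summits 16.0 bp apart), NAPG (7.97), HEY2 (11.7), ZBTB18 (6.08), SLC12A2 (7.08), FLOT1 (4.54), TPPP (4.78), RBPJ (12.3) and JADE3 (6.78). SLC12A2 encodes a sodium, potassium and chloride cotransporter, with an RBPJ fold of 8.43 at 374 bp upstream and the summits 1.00 bp apart. FLOT1 encodes flotillin, a membrane scaffold protein, with an RBPJ fold of 8.19 at 221 bp upstream. At the RBPJ gene itself the summit was 20 bp upstream, with an RBPJ fold of 7.57.

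Several promoters carried more than 1 member. The 1643 members belonged to 1348 genes, and 249 of these genes (18.5%) had at least 2, together 544 members (33.1%). Of the 249, 95 had all members upstream, 34 all downstream and 120 on both sides of the TSS. The member with the highest fold was upstream at 72 of the 120 genes with both sides. Members at genes with several had median folds of 5.08 upstream and 4.77 downstream, against 5.15 and 5.0 for single members. Summits of a gene within 2 kb of each other, a joining chosen after seeing the data, gave 240 promoters with several, at a median spacing of 244 bp (quartiles 172 and 354). Neighbouring summits this close can share DNA fragments, and the list does not tell separate binding from parts of 1 broad signal.

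PLEC, which encodes the cytoskeletal linker plectin, had 6 members, spread over 4 of its TSS, with folds of 4.20 to 5.95. The others with the most had 4 each. BHLHE40, a basic helix-loop-helix repressor, had summits at 932, 725 and 451 bp upstream and on the TSS, with folds of 4.83, 6.72, 5.58 and 4.83 in that order. BRD2, a reader of acetylated histones, had summits at 626, 544, 172 and 16 bp upstream, with folds of 3.54, 4.18, 4.66 and 4.56. CCDC9 had 3 upstream and 1 at 359 bp downstream (folds 5.12 to 6.18). ELF2, an ETS family factor, had 3 at 823, 283 and 180 bp upstream of 1 TSS (folds 7.36, 5.91 and 5.15) and 1 at 43 bp downstream of another (6.32). Its summit at 180 bp overlapped an L3MBTL3 peak, the only one of these 6 genes' members to do so. Over all members 5.78% overlapped one, so this count does not set the 6 genes apart. JUND, an AP-1 subunit, had summits at 445, 278 and 82 bp upstream and 157 bp downstream, with folds of 5.33, 5.17, 4.0 and 4.80. Chosen after their values were seen, 3 genes had 3 members that all overlapped L3MBTL3 peaks: FKBP5, which encodes a glucocorticoid-induced immunophilin, with all 3 downstream, ZFP64, a zinc finger gene, with all 3 upstream, and DCLK2, a kinase gene, with 2 upstream and 1 downstream. The summits spanned 298 bp at DCLK2 and 659 bp at ZFP64. Whether members of a gene met the same L3MBTL3 peak was not checked, so these overlaps may not be separate.

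**Figure D4:**
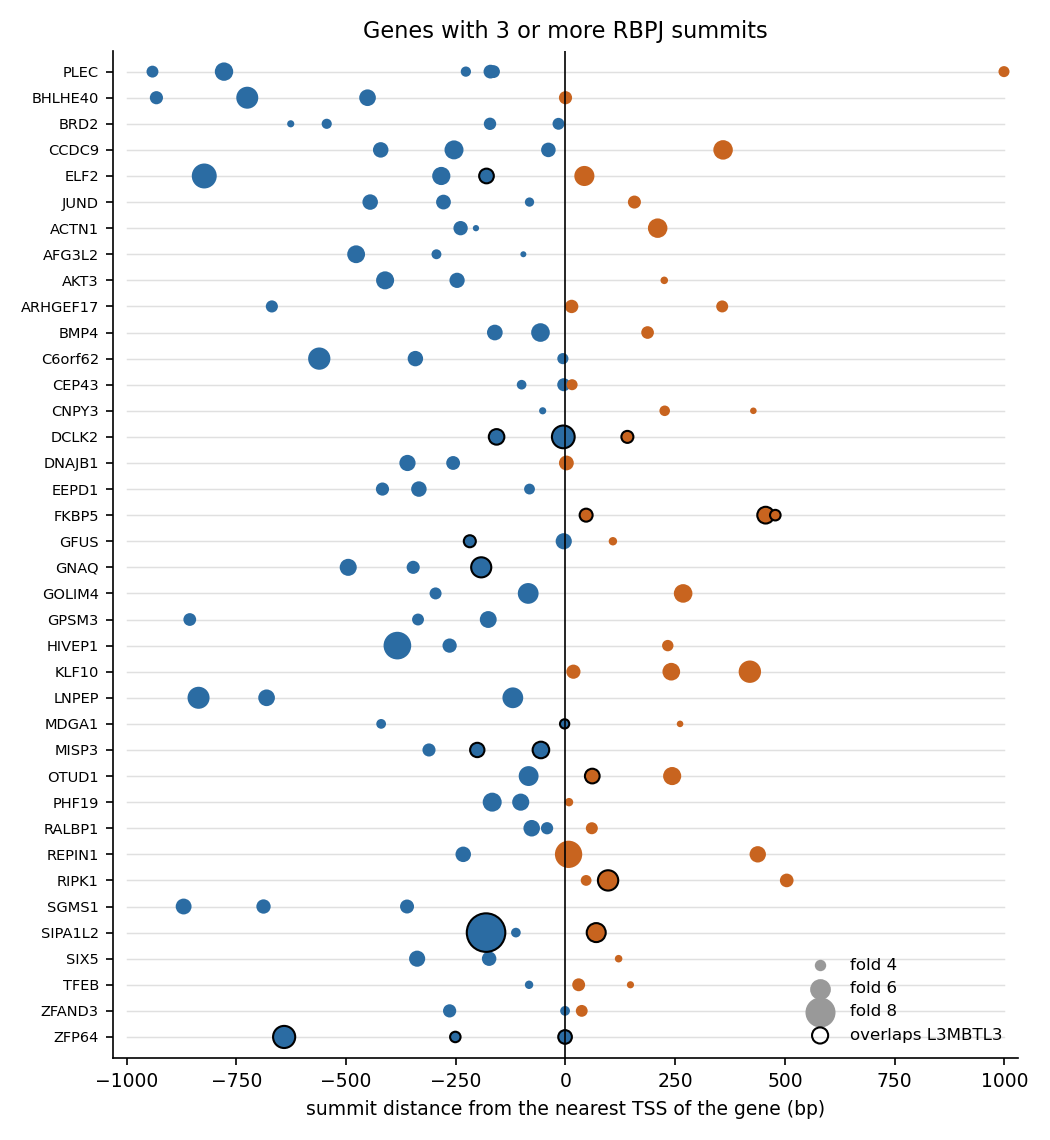
Genes with 3 or more members (y axis), each summit placed by its distance from the nearest TSS of the gene in bp (x axis); blue circles are upstream and orange circles downstream, circle size grows with RBPJ fold, and a black edge marks an L3MBTL3 overlap. BHLHE40, BRD2, CCDC9, ELF2 and JUND have 4 circles each and PLEC has 6, and blue circles reach farther from the TSS than most orange ones.

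Of 19549 protein-coding genes with single-direction promoter sequence, 6.90% had a member, 4.89% one upstream and 2.62% one downstream (955 and 513 genes). Gene lists were read against these shares, as a description with no test. The TSS was CpG-rich at 94.3% of members and 63.5% of the canonical control TSS, and the lists were not matched for this. Whether their shares follow promoter type in place of gene function was not tested. Some genes, such as JAG1, NOTCH1 and CDKN1A, are in several lists, so the lists do not count separate peaks. Among Notch targets, 8 of 27 genes had a member (29.6%, median fold 5.50 against 5.08 over all members). The repressor gene HEY2 had 8.86 at 78 bp upstream and HES1 6.80 at 4 bp upstream (chromosome 3, 193853660 to 193854017), and both held a high-affinity word. The other members of this list held none, while 5.48% of all members held one. NOTCH1, a receptor gene, had 6.27 at 233 bp upstream and overlapped L3MBTL3 (L3MBTL3 fold 5.81). NFKB2, an NF-kB subunit, had 5.31 at 20 bp, the ligand gene JAG1 4.62 at 218 bp, the Notch glycosyltransferase LFNG 3.62 at 335 bp and the cell cycle inhibitor CDKN1A 3.21 at 26 bp, all upstream. MYC had 5.70 at 9 bp downstream, the only downstream member of the list.

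Notch pathway components had members at 10 of 37 genes (27.0%, median fold 5.64). Among ligands and receptors, NOTCH2 had 6.06 at 68 bp upstream and 4.39 at 36 bp downstream, beside JAG1 and NOTCH1. ADAM17, a protease that cuts Notch, had 3.35 at 106 bp upstream. The coactivator genes MAML1 (5.64 at 205 bp) and MAML3 (6.58 at 26 bp) had theirs upstream. RBPJ had 7.57 at 20 bp upstream of 1 TSS and 6.08 at 96 bp downstream of another. FBXW7, a ubiquitin ligase subunit that acts on cleaved Notch, had 6.30 and 4.58 at 228 and 86 bp upstream.

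RBPJ corepressors and demethylase complexes had members at 9 of 32 genes (28.1%, median fold 5.29). RCOR1, the CoREST subunit that joins the demethylase KDM1A, had 8.59 at 669 bp and 5.29 at 283 bp upstream. Its relative RCOR3 had 6.64 at 28 bp upstream. NCOR1, with 8.01 at 52 bp downstream, was the only gene of the list with its members downstream alone. The NCOR complex subunits TBL1X (7.62 at 272 bp) and TBL1XR1 (5.70 at 11 bp) had theirs upstream. TLE1, a Groucho corepressor, had 5.27 and 4.61 at 313 and 3 bp upstream. PHF21A, a subunit of the demethylase complex, and SIRT1, a deacetylase, had members on both sides, with 5.04 and 5.37 upstream and 4.58 and 4.20 downstream. L3MBTL1, a relative of L3MBTL3, had 5.23 at 139 bp upstream. Of the 13 members of this list, 0 overlapped an L3MBTL3 peak and 1, at NCOR1, held a high-affinity word, counts that do not stand apart from the 5.78% and 5.48% of all members.

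AP-1 and immediate early genes, the transcription factors and phosphatases first induced by growth signals, had the highest share of the 32 lists. The lists were chosen with earlier results of these data known, so this rank is not independent of the data. Of 32 genes, 18 had a member (56.2%, median fold 5.21), 16 upstream and 5 downstream. KLF4 had 7.73 at 148 bp upstream, BTG1 6.67 at 243 bp, FOSL2 6.36 at 14 bp and DUSP6 6.01 at 14 bp, all upstream. KLF10 had 3 members, all downstream, at 18, 241 and 420 bp with folds of 5.05, 5.80 and 6.81. Outside the naming rule, FOS had 4.93 at 370 bp and EGR1 4.56 at 677 bp upstream, and JUNB 5.49 at 5 bp downstream. The median over the 28 members at these genes was near the 5.08 of all members. Of the 28, 0 overlapped an L3MBTL3 peak and 0 held a high-affinity word, where the shares over all members were 5.78% and 5.48%, too low for a count of 0 in 28 to set these genes apart. With a -log10 q of at least 5, 12.5% of the list and 1.52% of all 19748 protein-coding genes had a member. With TSS of all gene types in the rule on strands it was 31.2% and 4.73%. Over the same 19748 genes the share in the main setting was 6.83%.

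YAP/TEAD targets had members at 9 of 25 genes (36%, median fold 5.52), among them FJX1 (6.61 at 32 bp upstream), the receptor tyrosine kinase AXL (6.53 and 6.05 at 852 and 539 bp upstream), CCN1 (6.06 at 12 bp upstream) and TEAD1 itself (6.08 at 11 bp downstream). Among p53 targets 6 of 22 had one (27.3%), led by PLK2 (5.80 at 110 bp upstream) and followed by BTG2 (5.59 upstream) and PPM1D (5.58 downstream). Among TGF-beta and SMAD genes it was 7 of 27 (25.9%), with TGIF1 at 5.73, SMAD5 at 5.58 and SMURF2 at 5.52, all upstream. KLF and SP factors had 7 of 30 (23.3%) and actin cytoskeleton genes 8 of 35 (22.9%), the latter with TAGLN2, RAC1 (6.73, upstream), ACTN1 (6.18, downstream), DIAPH1 (6.17, upstream) and CDC42 (5.66, on the TSS). NF-kB genes had 4 of 21 (19%, median fold 4.39) and cell cycle genes 7 of 41 (17.1%, median fold 4.50), E2F3 leading the latter with 5.12.

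Among the remaining lists, shares above the 6.90% of all genes were those of the MAP kinase cascade (14.9%), cytosolic ribosomal proteins (12.6%, 11 of 87), splicing factors (12.5%), ubiquitin conjugation (12.1%), RNA helicases (11.3%), proteasome subunits (10.2%), mesenchymal genes (9.52%), zinc finger genes (8.67%), RAB GTPases (8.20%) and replication-dependent histones (7.94%, 5 of 63). The lists of proteasome subunits (5 of 49), mesenchymal genes, RAB GTPases (5 of 61) and histones do not stand apart at such counts. The share of zinc finger genes was also near 6.90%. Zinc finger genes had members at 50 of 577, 28 with one upstream and 26 with one downstream, and solute carriers at 22 of 372 (5.91%), 19 upstream and 3 downstream. Mesenchymal genes had AXL and VIM (5.11 at 121 bp downstream), 2 of 21. Luminal epithelial genes had MUC1 alone, 1 of 20 (5.0%), with a fold of 2.77, the lowest of all members. HOX genes (39), olfactory receptors (390) and keratins (55) had no member.

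**Figure D5:**
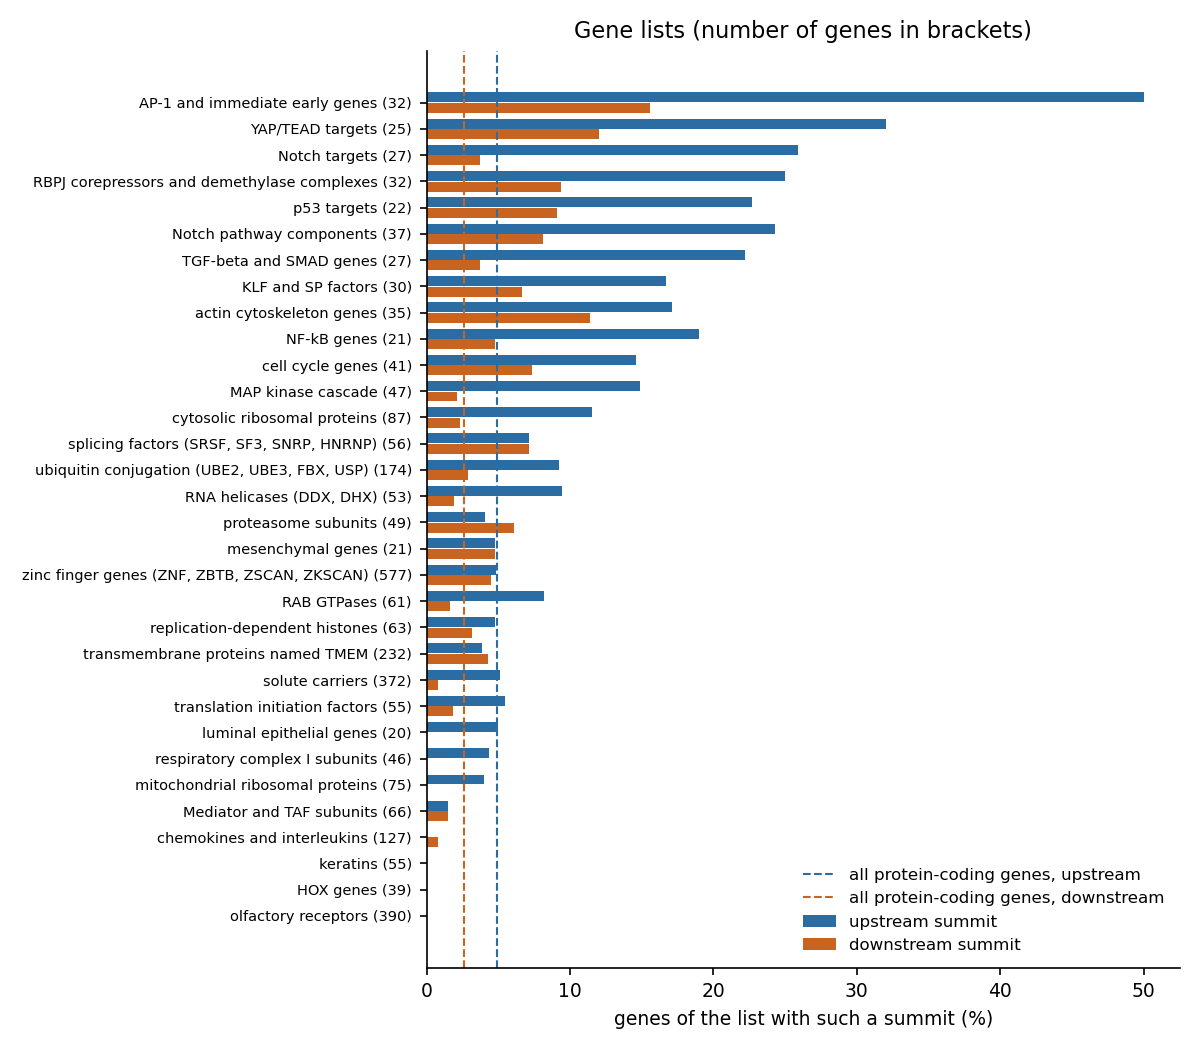
Percent of the genes of each list (y axis, number of genes in brackets) with a member upstream in blue or downstream in orange (x axis); dashed lines are the shares of all 19549 protein-coding genes, 4.89% upstream and 2.62% downstream. The blue bar of AP-1 and immediate early genes reaches 50.0%, and the bottom lists, keratins, HOX genes and olfactory receptors, have none.

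Set against RBPJ peaks at divergent promoters, the members did not differ detectably. Of 5 Fisher's exact tests, 0 passed after Benjamini-Hochberg adjustment and 0 had an unadjusted p under 0.05. The nearest was the core TGGGAA, in 20.8% of members and 26.2% of divergent peaks (odds ratio 0.741, 0.541 to 1.02; exact test, adjusted p = 0.365). L3MBTL3 overlap was 5.78% and 4.72% (odds ratio 1.24, 0.653 to 2.35), and the high-affinity word 5.48% and 6.44% (0.842, 0.479 to 1.48). The Notch target HES4, with a fold of 15.6, and the demethylase gene KDM1B, with 7.82, have their peaks at divergent promoters and so are not members.

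Members were spread unevenly over the chromosomes. Chromosome 6 held 189 (11.5%), or 57.8 per Mb of single-direction promoter sequence, with a median fold of 4.58. Chromosome 20 had 48.2 per Mb and chromosome 5 had 36.4. Chromosomes 15, 16 and 22 had 1.81, 2.55 and 2.58 per Mb, from 4, 8 and 4 members, and X and 13 had 7.84 and 8.35. Chromosome 11 (135 members) and chromosome 17 (84 members) had 0 L3MBTL3 overlaps, as had chromosomes 15 and 16. Over all members the share was 5.78% (95 of 1643). The L3MBTL3 peaks were not counted by chromosome, so these counts may reflect where that list has peaks.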

How the data were processed

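ChIP-seq libraries of MDA-MB-231 cells were used, 1 for RBPJ (2926 peaks) and 1 for L3MBTL3 (444 peaks). Per the labels' protocols, single-end reads of 50 cycles were cleared of adaptors by Trimmomatic, and BWA 0.7.15 aligned them to hg19. Per the submitters' processing notes, peaks were called with MACS2. The sources used here give neither its version, cutoff and control nor the reads in each peak, so no error can be put on a fold. Each deposited list holds the peaks of 1 library, with the fold enrichment (a ratio), the -log10 p-value and q-value and a score as the authors' caller gave them. The smallest -log10 q was 1.31 for RBPJ and 1.30 for L3MBTL3.

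TSS were those of protein-coding transcripts of protein-coding genes in GENCODE 44 lifted to GRCh37 (78399 positions, 19748 genes), with pysam 0.24.0, pandas 2.3.3, numpy 2.4.6 and scipy 1.17.1 in Python 3.11.15. A summit on a TSS counted as downstream. Words were sought on both strands in 201 bp windows. Control windows were centred on the midpoints of 100 bp bins around canonical TSS of the same kind. Their shares were weighted by the members' counts in each bin, so distances match by bin only. Fisher's exact tests were two-sided, share intervals are 95% Wilson and odds ratio intervals Woolf. A list's genes are those that have single-direction promoter sequence. Counting was tested on simulated peaks and sequences with known answers.

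Members, lists and words were chosen with earlier results of these data known. Named are the 12 members with the highest fold on each side, the 10 with an L3MBTL3 overlap, genes with at least 4 members, all members of the first 3 lists (1 is not reported here), up to 5 per other hand-written list, and for sequences the 8 per side with a high-affinity word, chromosome 8 left out. Alternatives were stricter q and fold limits, windows of 500 and 2000 bp, other TSS sets, summits within 50 bp of the TSS left out, peak midpoints, 1 member per gene, other overlap and word windows, and each chromosome left out. The canonical TSS, the 2 kb joining and the settings for CCAAT, the GC box, counts of words and of divergent tests, several members and the immediate early list were added after seeing the data.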

Additional observations from a re-analysis of the deposited data

How the results depend on the processing

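No paired analysis was possible because each antibody has 1 library. Upstream share: 73.1% with a -log10 q of at least 5, 70.2% with a fold at or above the list median, 51.7% with the gene's 5′ end as only TSS and 73.3% without summits within 50 bp of the TSS, the range without 1 chromosome being 65.7% to 66.6%. The difference of median folds, upstream minus downstream, was 0.202 to 0.266 without 1 chromosome. It was 0.134 at the stricter q and 0.0267 at the stricter fold. Shares at or above the median fold of the peaks kept did not pass there (Fisher's exact p = 0.523 and exact p = 0.819). Both limits select on peak strength, the quantity compared, so they cannot decide whether the difference is stable. The odds ratio of L3MBTL3 overlap passed the test with a 500 bp window (0.626), the canonical TSS (0.505), basic transcripts (0.550), TSS of all gene types (0.408), summits within 50 bp left out (0.503), midpoints (0.572) and L3MBTL3 peaks within 1 kb (0.567), and was 0.611 to 0.726 without 1 chromosome. The CpG odds ratio turned with the gene's 5′ end (2.10, Fisher's exact p = 0.00135) and without summits within 50 bp (1.22), that of the high-affinity word with the gene's 5′ end (1.28), and that of the core with the gene's 5′ end (1.10), the canonical TSS (1.06) and midpoints (1.08); without 1 chromosome they were 0.793 to 0.949, 0.584 to 0.809 and 0.797 to 0.915.

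The number of words that differed was 0 at the stricter q and fold, 1 with a 2000 bp window, the gene's 5′ end, basic transcripts, all gene types or 1 member per gene, 4 with the canonical TSS (CCAAT, YY1, E-box and GC box), 5 without summits within 50 bp (ETS, CCAAT, CRE, E-box and GC box) and 1 to 2 without 1 chromosome. CCAAT lost its call at the stricter q (odds ratio 1.71) and fold (1.77) and kept it in the 11 other settings. Immediate early genes with a member were 12.5% at the stricter q (1.52% of all genes), 31.2% with all gene types (4.73% of all genes) and 43.8% to 56.2% without 1 chromosome. Genes with several members were 4.0% at the stricter q, 8.62% at the stricter fold, 14.1% without summits within 50 bp and 17.0% to 18.9% without 1 chromosome. With all gene types 1 test differed from divergent promoters. The causes were not tested, except that stricter limits leave 312 and 826 members. A single list per antibody and unknown reads per peak limit the precision of each fold.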
